A study of Homo sapiens with 4 samples.

Results

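The genes described here are the 8 cyclin-dependent kinase inhibitors CDKN1A, CDKN1B, CDKN1C, CDKN2A, CDKN2B, CDKN2C, CDKN2D and CDKN3, taken by name from the 59050 genes of the count table. The counts come from RCC4, an established VHL-deficient cell line of human clear cell renal cell carcinoma (ccRCC), transduced with a lentivirus that carried either a scrambled hairpin (shCtrl) or 1 hairpin against PML (shPML), both driven by a doxycycline-inducible promoter. All cells, the controls included, were puromycin-selected bulk populations given 100 ng/ml doxycycline for 96 h. There were 2 libraries per group, and the replicate numbers 1 and 2 were read as the 2 separate infections that the study describes, although its methods do not tie a number to an infection. The question asked of these genes was which of them RCC4 cells express at all, and whether they differed between shPML and shCtrl within each replicate.

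Progression through the cell cycle depends on cyclins bound to their kinases (CDKs), and inhibitor proteins hold these kinases in check. The CIP/KIP proteins p21 (CDKN1A), p27 (CDKN1B) and p57 (CDKN1C) bind cyclin-CDK complexes of G1 and S phase. The INK4 proteins p16 (CDKN2A), p15 (CDKN2B), p18 (CDKN2C) and p19 (CDKN2D) bind only CDK4 and CDK6 and keep D-type cyclins from activating them. CDKN3 is a phosphatase that removes the activating phosphate of CDK2 and CDK1, and its mRNA is made mostly in G2 and M phase. CDKN1A is a direct target of p53, and p21 and p16 are the inhibitors best known from senescent cells.

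Levels are given in CPM, the count relative to the library size after TMM scaling, or in TPM where genes are compared with each other, since TPM also divides by gene length. The libraries held from 27781193 to 69870617 counted reads. PML, the silenced gene, went from 93.1 to 54.9 CPM with the hairpin in replicate 1 and from 136 to 87.6 CPM in replicate 2. Its log2 fold change of -0.69 was not called without a block for the replicate (adjusted p = 0.32 in edgeR) and was called with it (adjusted p = 4.2e-07). The renal carcinoma markers PAX8, PAX2, CA9, KRT8, KRT18, VIM and EPAS1 had counts in all 4 libraries. In shPML replicate 2, however, markers of leukocytes were also present. Of a list of 14 myeloid genes, written after this was seen, 13 had at least 10 counts there against 2 or 3 in the other libraries, and their summed level was 273 CPM against 2.77 to 3.36 CPM. CD14, a monocyte receptor, had 1177 counts in that library and from 2 to 4 in the others, while the lymphocyte gene CD3E was at 0 in all 4. In all, 148 genes had at least 10 counts in shPML replicate 2 and 0 in every other library, as against 8, 27 and 4 genes for shCtrl replicate 1, shPML replicate 1 and shCtrl replicate 2. For the 6 inhibitors tested, the ratio within each replicate and the unblocked log2 fold change without shPML replicate 2 are therefore given. All fits with the block, and the fitted values of most other genes, include that library. The part of the myeloid RNA in these results was not tested.

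Of the 8 inhibitors, 6 were expressed in every library and passed the filter on low counts, CDKN2A had no counts at all, and CDKN2B had counts in 1 library only. CDKN1A had the highest level per length in all 4 libraries, from 242 to 488 TPM, and made up from 55.0% to 75.6% of the summed TPM of the 8 genes. In shCtrl it exceeded CDKN1B, at 40.8 and 62.1 TPM, by 7.83 times in replicate 1 and 3.89 times in replicate 2. CDKN1B, CDKN2C and CDKN3 lay close together in shCtrl, with 40.8, 41.9 and 41.2 TPM in replicate 1 and 62.1, 58.5 and 47.3 TPM in replicate 2, and their order was not the same in both. CDKN2D followed with 18.8 and 13.2 TPM, and CDKN1C with 7.12 and 16.6 TPM, again in a different order in each replicate. The summed level of the 8 genes was 469 TPM for shCtrl and 537 TPM for shPML of replicate 1, and 440 and 662 TPM in replicate 2. It was thus higher in shPML in both. CDKN1A went from 319 to 406 TPM in replicate 1 and from 242 to 488 TPM in replicate 2. Its share went from 68.1% to 75.6% and from 55.0% to 73.7%. Of the other genes expressed in every library, CDKN1B and CDKN2D were higher in shPML within each replicate. CDKN1C, CDKN2C and CDKN3 were lower.

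Differences between shPML and shCtrl were fitted with edgeR (quasi-likelihood) across 16516 genes. Genes were called when the adjusted p was under 0.05 and the log2 fold change exceeded 0.5 in size. Without a block for the replicate, none of the 6 inhibitors tested was called, in a fit that called 0.0787% of all genes higher and 0.333% lower. That fit leaves out the pairing of libraries within a replicate, and it did not call PML, the silenced gene, either. The smallest unadjusted p among the members were those of CDKN3, which was lower, and CDKN1A, which was higher, and these 2 alone were under 0.05. At that level the same fit had 1289 genes higher and 1669 lower of the 16516 tested. With the replicate as a block, CDKN1A and CDKN2D were called higher and CDKN1C and CDKN3 lower, beside 8.57% of all genes called higher and 10.5% lower. DESeq2 without the block called only CDKN3, lower, where 3.47% of genes were called higher and 5.42% lower. DESeq2 with the block called CDKN1C and CDKN3, both lower, where the shares were 7.27% and 9.41%. CDKN3 was the member called by every one of these fits but the first. With shPML replicate 2, shCtrl replicate 1 or shCtrl replicate 2 left out, edgeR without the block called 0 genes in all, and without shPML replicate 1 it called 187 higher and 61 lower, of which 0 were inhibitors. The direction of each of the 6 genes was the same in both replicates. Of the 16516 genes tested, 6111 were higher in shPML in both replicates and 6124 lower in both, so such agreement is common.

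**Figure D1:**
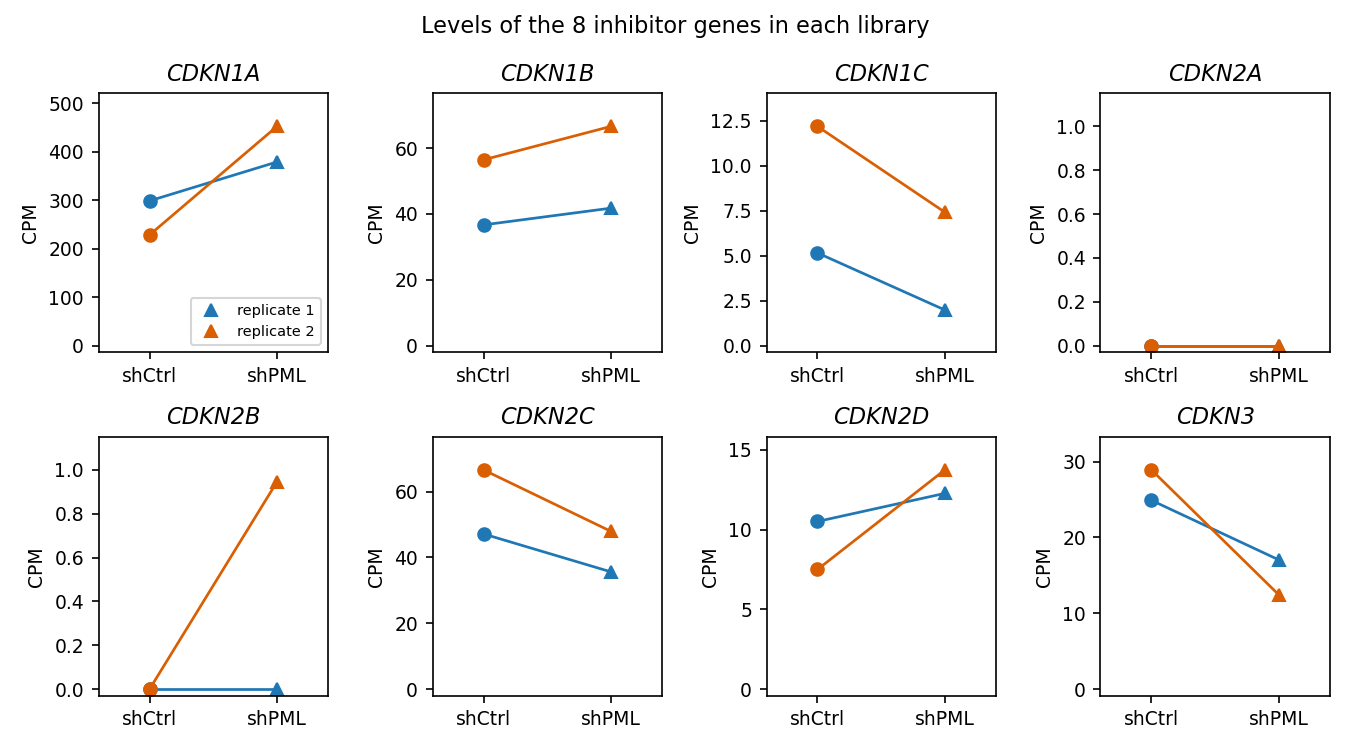
CPM of the 8 inhibitor genes in each library, with a panel per gene, the shCtrl and shPML libraries of a replicate joined by a line, and axes that differ between panels. CDKN1A and CDKN2D are higher and CDKN3 lower in both shPML libraries than in both shCtrl libraries, while for CDKN1B, CDKN1C and CDKN2C the 2 conditions overlap. Of all genes tested, 23.1% are higher in this way and 24.9% lower.

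Promoter windows of RefSeq (GRCh38.p14, 250 bases before to 50 after each start) were matched for 7 of the 8 members, in 10 windows. They are shown for CDKN1A and CDKN3 because these genes had the smallest p among the members and differed in opposite directions. Both strands were searched for the CHR element known from promoters of G2/M genes, spelled TTTGAA. They were also searched for the CCAAT box by the letters of its name, and for the GC box that SP1 binds, spelled GGGCGG. The word TATAAA stood for the TATA box, which positions the start of transcription. The site of E2F factors was searched in 2 spellings, of which the first was TTTGGCGC. The second spelling of that site was TTTCCCGC. The capitals mark the match, and positions are those of its first base counted from the RefSeq start site of that window.
CDKN1A, GC box at -94, chr6:36678609-36678636, plus strand: agggcggtcccGGGCGGcgcggtgggcc
CDKN1A, GC box at -40, chr6:36678663-36678690, plus strand: gggcccgggcgGGGCGGttgtatatcag
CDKN3, CCAAT box at -208, chr14:54396788-54396814, plus strand: cgccctcccagCCAATcaacgtcccac
CDKN3, CHR element in reverse complement at -170, chr14:54396826-54396853, plus strand: cccgcgcgtctTTCAAAggtcttctagg
CDKN3, CCAAT box in reverse complement at -83, chr14:54396913-54396939, plus strand: aagcggatctgATTGGttgctggaaga

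The CDKN1A window held 4 GC boxes, of which those at -45 and -40 overlap, and none of the other spellings searched. The CDKN3 window held 1 CHR element and 2 CCAAT boxes and no GC box. CDKN3 was the only member with a CHR element in a window. Of the 35116 windows of the table, 15.2% hold a CHR element, 34.6% a CCAAT box, 5.9% both, 45.0% a GC box, 11.5% the TATA box and 0.652% and 1.63% the E2F spellings. A window of CDKN2C and those of CDKN1B and CDKN2D held CCAAT boxes as well, and no member window held the word TATAAA or either E2F spelling. Each motif was searched only as spelled above, so other forms of it, such as variant TATA boxes, would be missed. Such a match describes the letters of the window and is not evidence that a factor binds there.

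CDKN1A, which encodes p21, lies on chromosome 6 of GRCh38 from 36676460 to 36687339 on the plus strand. It measured 299 CPM in the shCtrl and 379 CPM in the shPML library of replicate 1, against 229 and 453 CPM in those of replicate 2. Both shPML libraries lay above both shCtrl libraries, which held for 23.1% of all genes tested. The mean was 264 ± 49.6 CPM in shCtrl and 416 ± 51.9 CPM in shPML (SD, n = 2 each). In edgeR the fitted log2 difference was 0.66 both with and without the block. Its standard error was 0.20, with an adjusted p = 0.19, when the replicates were not blocked. When they were, it was 0.11, with an adjusted p = 7.0e-07. The ratio was 1.27-fold in replicate 1 and 1.98-fold in replicate 2, the replicate whose shPML library held the myeloid RNA. Without that library the unblocked log2 fold change was 0.52, while the log2 ratio within replicate 1 was 0.34. The unblocked fit does not compare shPML with shCtrl within a replicate, so the difference between replicates enters it. DESeq2 did not call the gene with the block (log2 fold change 0.67, standard error 0.33, adjusted p = 0.13) or without it (adjusted p = 0.061). DINOL, a long noncoding RNA on the opposite strand that shares 32 exonic bases with CDKN1A, had 3 counts in each of the 4 libraries.

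CDKN1A was set beside 25 other p53 target genes. Of these, 22 had a positive log2 fold change, with a median of 0.59 against 0.01 over all genes tested. The median was 0.24 within replicate 1 and 0.56 within replicate 2. None was called without the block, and 12 were called higher and 1 lower with it, beside 8.57% and 10.5% of all genes. Among them FDXR, a mitochondrial reductase, was at 42.8 and 39.4 CPM in shCtrl and 64.5 and 92.3 CPM in shPML of replicates 1 and 2. The death receptor genes TNFRSF10B and FAS had log2 fold changes of 0.71 and 0.73 without the block and were called with it. PPM1D, a phosphatase that acts against p53, had a log2 fold change of -0.88 and was the gene called lower with the block. CDKN1A had 12 of the 25 genes above it in replicate 1 and 10 in the fit without the block. In replicate 2, whose shPML library held the myeloid RNA, 7 were above it. MDM2, the ligase that degrades p53 and is also its target, had a log2 fold change of 0.35 (adjusted p = 0.34 in edgeR's test without the block, and 0.0075 with it), short of the fold change threshold.

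CDKN1B, which encodes p27, lies on chromosome 12 from 12717368 to 12722369. It measured 36.7 CPM in the shCtrl and 41.8 CPM in the shPML library of replicate 1, against 56.5 and 66.6 CPM in those of replicate 2. The replicates differed more than the conditions, and the groups overlapped. Its fitted log2 difference in edgeR was 0.22 (standard error 0.31), for which the adjusted p = 0.80 unblocked and 0.18 blocked, with log2 ratios of 0.19 and 0.24 within replicates 1 and 2. Without the block the difference was smaller than its standard error, and with the block the standard error was 0.12. In unblocked fits with a library left out, the sign of the difference turned, to -0.05 without shCtrl replicate 1 and -0.16 without shPML replicate 2. Such fits do not compare shPML with shCtrl within a replicate, so the difference between replicates enters them.

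The protein p27 is also set by its degradation, in which SKP2 and its cofactor CKS1B recognise it for ubiquitylation. SKP2 was at 25.7 and 11.6 CPM in shCtrl and shPML of replicate 1, and at 35.5 and 14.6 CPM in replicate 2. CKS1B was at 41.3 and 12.4 CPM in replicate 1, and at 29.0 and 8.37 CPM in replicate 2. In both genes every shPML library lay below both shCtrl libraries, as for 24.9% of all genes tested. The log2 fold changes were -1.22 and -1.75 (adjusted p = 0.0865 and 0.0681 without the block, and 4.9e-11 and 1.3e-16 with it, edgeR). Of 15 genes of inhibitor turnover, 9 had a negative log2 fold change and the median was -0.02, against 0.01 over all genes tested. With the block 4 were called lower, namely SKP2, CKS1B, DTL (a receptor of the ligase that degrades p21) and CDC20 (an activator of the anaphase-promoting complex), and 0 higher. Of all genes, 10.5% were called lower and 8.57% higher in that fit.

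CDKN1C, which encodes p57, lies on chromosome 11 from 2883213 to 2885773 on the minus strand. Its counts were low, 279 for shCtrl and 142 for shPML of replicate 1 and 439 and 204 in replicate 2, or 5.15, 1.98, 12.2 and 7.42 CPM in the same order. It was lower in shPML within each replicate, but shPML replicate 2 exceeded shCtrl replicate 1. In edgeR it differed by -0.90 on the log2 scale (standard error 0.71, adjusted p = 0.60) unblocked and by -1.04 (standard error 0.23, adjusted p = 0.00021) blocked, and DESeq2 with the block also called it lower (adjusted p = 0.020). The ratio was 0.384 in replicate 1 and 0.608 in replicate 2. Fits without the block moved from -0.15 without shCtrl replicate 2 to -2.12 without shPML replicate 2. They were -0.23 without shPML replicate 1 and -1.38 without shCtrl replicate 1. These fits do not compare shPML with shCtrl within a replicate, so the difference between replicates enters them.

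CDKN2A, the gene of p16 and, from another first exon, of ARF, lies on chromosome 9 from 21967753 to 21995301 on the minus strand. It had 0 counts in each of the 4 libraries. A count of 0 allows up to 3 counts, or from 0.0418 to 0.109 CPM in a single library, and 0.0159 CPM over the 188332360 counted reads of all 4. These limits cover counting error only. Of its 3157 exonic bases, 668 (21.2%) are shared with the antisense gene CDKN2B-AS1, and the strand setting of the counting is not given in the sources used here, so reads there could have been assigned to neither gene. The remaining bases are shared with no other gene of the table. No expression of p16 or ARF mRNA was therefore detectable at this depth in shCtrl or in shPML.

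CDKN2B, which encodes p15, lies beside it on chromosome 9 from 22002903 to 22009305. It had 0 counts in shCtrl replicate 1, shPML replicate 1 and shCtrl replicate 2, and 26 counts in shPML replicate 2, or 0.946 CPM (95% Poisson interval from 0.618 to 1.39 CPM). Within replicate 2 the measured level was 11.3 times that of the 3 counts that a count of 0 allows in shCtrl, a ratio that leaves out the counting error of the 26 counts. The library with these counts is the one with myeloid RNA, and CDKN2B is among the 148 genes seen there alone. In replicate 1, in which no library held such RNA at this level, CDKN2B was at 0 in shCtrl and shPML. The gene did not pass the filter. When the filter was dropped, edgeR called CDKN2B higher (log2 fold change 7.43, adjusted p = 0.0076) and CDKN3 lower, beside 2.96% of 30093 genes called higher and 3.14% lower, and the call of CDKN2B rests on that 1 library. Its fitted fold depends on the prior count that edgeR adds.

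**Figure D2:**
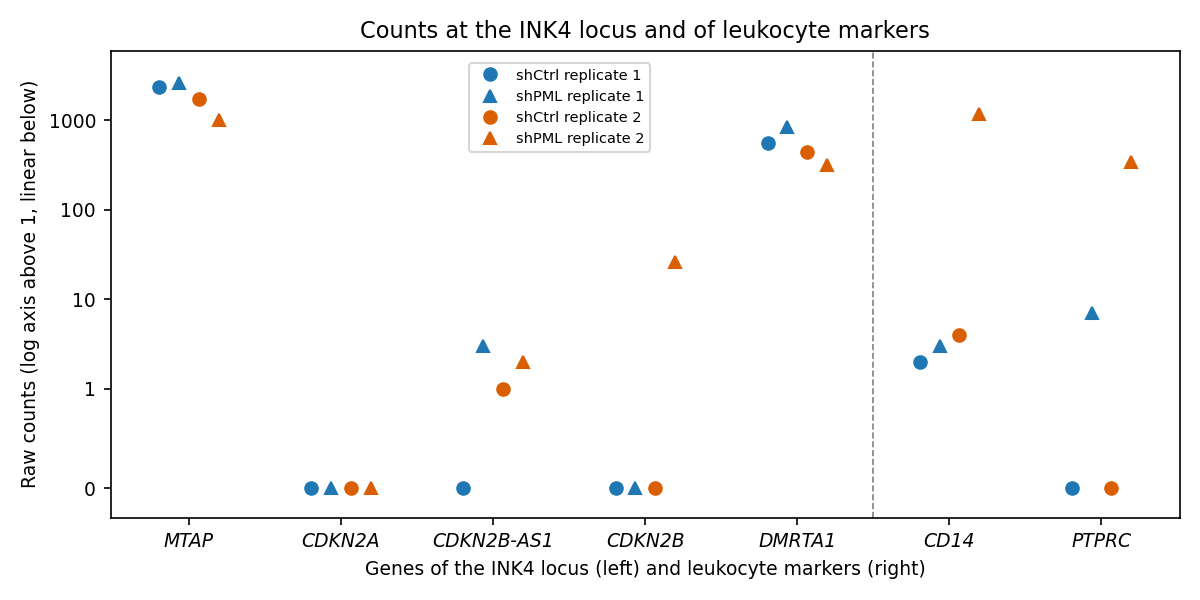
Raw counts in each library for the genes of the INK4 locus on chromosome 9 and, right of the dashed line, for the leukocyte markers CD14 and PTPRC (logarithmic axis above 1, linear below). MTAP and DMRTA1 have at least 318 counts in every library and CDKN2A has none, while the 26 counts of CDKN2B fall in the library with 1177 counts of CD14.

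The genes on either side of the INK4 locus were read. MTAP, an enzyme of the methionine salvage pathway whose gene lies from 21802636 to 21937651, had between 1013 and 2638 counts, at 43.4 and 36.8 CPM in shCtrl and shPML of replicate 1 and 47.6 and 36.8 CPM in replicate 2. DMRTA1, from 22446824 to 22455740, had between 318 and 842 counts. CDKN2B-AS1, the long noncoding RNA that runs antisense through the locus, had 0, 3, 1 and 2 counts in shCtrl replicate 1, shPML replicate 1, shCtrl replicate 2 and shPML replicate 2. Counts were thus at or near 0 for the genes between MTAP and DMRTA1, apart from those of CDKN2B in shPML replicate 2. Whether the locus is deleted or silent cannot be told apart from these counts.

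Polycomb proteins silence the INK4 locus in many cells, and a list of 17 regulators of the locus held these and some others, such as the demethylase gene KDM6B and the transcriptional inhibitor gene ID1. Their median log2 fold change was 0.08, with 10 genes positive and 7 negative. Over all genes tested the median was 0.01, with 8406 positive and 8110 negative. With the block PCGF2 and CBX7 were called higher, and the polycomb genes EZH2 and CBX2 and the other regulator ID1 were called lower. These are 2 and 3 of 17 genes, in a fit that called 8.57% of all genes higher and 10.5% lower. EZH2, a polycomb methyltransferase, was at 67.7 and 35.9 CPM in shCtrl and shPML of replicate 1 and at 70.1 and 27.8 CPM in replicate 2. CBX7 was at 12.2 and 26.3 CPM in replicate 1 and at 9.06 and 30.3 CPM in replicate 2, and CBX2 had a log2 fold change of -1.23, so that these chromodomain subunits moved in opposite directions. BMI1 had a log2 fold change of -0.17 (standard error 0.41). None of these was called without the block (adjusted p = 0.0682 for EZH2, 0.0654 for CBX7 and 0.0942 for CBX2 in edgeR's test).

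CDKN2C, which encodes p18, lies on chromosome 1 from 50960745 to 50974634. It measured 47.1 CPM in the shCtrl and 35.6 CPM in the shPML library of replicate 1, against 66.6 and 47.9 CPM in those of replicate 2. Each shPML library was below the shCtrl library of its replicate, while shPML replicate 2 lay just above shCtrl replicate 1. In edgeR it differed by -0.45 on the log2 scale (standard error 0.25, adjusted p = 0.43) unblocked and by -0.44 (standard error 0.12, adjusted p = 0.0025) blocked, which is short of the fold change threshold, and the log2 ratios were -0.40 and -0.47 within replicates 1 and 2. Omitting shCtrl replicate 2 or shPML replicate 1 brought the unblocked value to -0.18 or -0.26. Omitting shCtrl replicate 1 or shPML replicate 2 brought it to -0.66 or -0.67. The difference between replicates enters these unblocked values.

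CDKN2D, which encodes p19, lies on chromosome 19 from 10566462 to 10569059 on the minus strand. It measured 10.5 CPM in the shCtrl and 12.3 CPM in the shPML library of replicate 1, against 7.50 and 13.7 CPM in those of replicate 2. Both shPML libraries lay above both shCtrl libraries, as for 23.1% of all genes tested, but the step was small in replicate 1. The edgeR estimate was 0.53 on the log2 scale in both fits, with a standard error of 0.24 and adjusted p = 0.34 unblocked and of 0.17 and adjusted p = 0.014 blocked, just past the fold change threshold. Within replicate 1 the log2 ratio reached 0.22, and within replicate 2 it reached 0.87. Without shPML replicate 2 the unblocked log2 fold change was 0.45, and it ranged to 0.30 without shCtrl replicate 2 and 0.81 without shCtrl replicate 1. The difference between replicates enters these unblocked values too. DESeq2 did not call it with the block (adjusted p = 0.17).

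CDKN3 lies on chromosome 14 from 54396955 to 54420218. It measured 24.9 CPM in the shCtrl and 17.0 CPM in the shPML library of replicate 1, against 28.9 and 12.4 CPM in those of replicate 2. Its shPML values were both under the lower shCtrl value, as for 24.9% of all genes tested. The mean was 26.9 ± 2.84 CPM in shCtrl and 14.7 ± 3.26 CPM in shPML (SD, n = 2 each). The edgeR estimate was -0.86 on the log2 scale in both fits. The standard error was 0.22 unblocked (adjusted p = 0.14) and 0.14 blocked (adjusted p = 1.3e-06). DESeq2 called the gene both without the block (adjusted p = 0.032) and with it (adjusted p = 0.0014). Expression in shPML was 0.684 of that in shCtrl within replicate 1 and 0.430 within replicate 2. Leaving out shPML replicate 2 gave an unblocked log2 fold change of -0.66, into which the difference between replicates enters. Within replicate 1 the log2 ratio was -0.55.

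CDKN3 was set beside 25 genes of G2 and M phase. All 25 had a negative log2 fold change in the fit and within each replicate, and the fitted values ran from -1.52 (BIRC5) to -0.48 around a median of -1.03. Without the block BIRC5, a chromosomal passenger protein, and UBE2C, a ubiquitin-conjugating enzyme of the anaphase-promoting complex, were called lower (log2 fold changes -1.52 and -1.45, adjusted p = 0.0484 for both, edgeR), and with the block 24 of the 25 were. The share of all genes called lower with the block was 10.5%. In replicate 1 the fall of CDKN3 was smaller than that of every one of the 25 genes, and in replicate 2 it was larger than that of 17 of them. In bulk RNA, fewer cells in G2 and M phase and less of an mRNA per cell cannot be told apart.

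The kinases and cyclins on which these inhibitors act were read from a list of 13 genes, 12 of which passed the filter. Of these, 10 had a negative log2 fold change, and the median was -0.84 within replicate 1 and -0.99 within replicate 2. CDK2, the main target of p21 and p27 and a substrate of CDKN3, was at 51.7 and 19.2 CPM in shCtrl and shPML of replicate 1 and at 51.2 and 16.2 CPM in replicate 2, and it was the gene of the list called without the block (log2 fold change -1.54, standard error 0.17, adjusted p = 0.0484, edgeR). CDK4 and CDK6, the targets of the INK4 proteins, had unblocked log2 fold changes of -0.33 (standard error 0.16) and -0.14 (standard error 0.20). They were not called with or without the block. For CDK4 the adjusted p = 0.36 unblocked and 0.0067 blocked in edgeR, and its difference was short of the fold change threshold. The D-type cyclins did not move together. CCND1 was at 134 and 221 CPM in replicate 1 and at 174 and 367 CPM in replicate 2, with a log2 fold change of 0.93 in edgeR, where the adjusted p = 0.19 unblocked and 1.1e-10 blocked. CCND3 was at 98.2 and 44.4 CPM in replicate 1 and at 99.6 and 54.9 CPM in replicate 2 (0.452 and 0.551 of shCtrl, adjusted p = 0.0727 unblocked and 1.1e-10 blocked, edgeR). With the block, 2 genes of the list were called higher, CCND1 and CCND2, and 7 lower, beside 8.57% and 10.5% of all genes. CDK1, CCNB1, CCNB2 and CCNA2 are in this list and in that of G2/M genes.

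Profiles over the 4 libraries were compared by the root mean square difference of mean-centred log2 CPM, as a description over 4 points that share the same libraries. The genes nearest to CDKN1A were MDH1B and LINC01503 (differences of 0.030 and 0.031), and those nearest to CDKN3 were PRPF18 and AUNIP (0.021 and 0.028). For CDKN1B they were MMP24OS and ZNF282 (0.017 and 0.020), for CDKN2C PELP1 and MAPK1IP1L (0.019 and 0.021), and for CDKN2D DLGAP1-AS1 and SASH1 (0.014 and 0.019). CDKN1C had no gene as near, with METRNL and MAN1B1-DT at 0.081 and 0.082.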

How the data were processed

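The authors trimmed single-end reads of stranded mRNA libraries with Trimmomatic 0.39, mapped these to GRCh38 by STAR, and used featureCounts 1.6.4 for counting on a Gencode release whose number is not given. The deposited values are raw counts of 59050 genes in 4 libraries. The shCtrl and shPML columns without a number were taken as replicate 1, since the other column of each condition is named replicate 2.

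Genes kept by filterByExpr (16516) were scaled by TMM and tested with edgeR 4.0.16 (quasi-likelihood, Benjamini-Hochberg) in R 4.3.3, without a block. DESeq2 1.42.0, the block, other filters and scalings, and each library left out were alternatives. Standard errors are the log2 fold change over the root of its F statistic. The numbers were read as the 2 infections of the methods. Deviations of the replicate 1 libraries from their group means had a correlation of 0.546 across 16516 genes, which is the check of the pairing. The common dispersion, edgeR's measure of spread over all genes, was 0.0813 without the block and 0.0137 with it. P-values without the block rest on the spread between the 2 libraries of a group. Those with the block rest on how far the differences within the 2 replicates disagree. In both, the spread is partly estimated from all genes tested.

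Named genes were the members, PML, at most 4 genes per list with the smallest p, genes acting directly on a member, the neighbours of the INK4 locus and the 2 nearest profiles. CD14, PTPRC, CCND2, CCND3, PECAM1, CDH5, DCN, LUM, PCGF2 and KDM6B were named after their values were seen. Members and lists were chosen with earlier results of these data known. Promoter windows came from RefSeq (GRCh38.p14). Some genes of the lists are not reported here.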

Additional observations from a re-analysis of the deposited data

How the results depend on the processing

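The number of genes called without the block, 13 higher and 55 lower, depended on the fit. It was 1415 and 1735 with edgeR and the replicate block, 538 and 840 with DESeq2 without the block, 1000 and 1294 with DESeq2 and the replicate block, 0 and 0 with RLE normalization (where 0 members were called), 891 and 946 without a filter on low counts, and 53 and 144 with at least 10 counts in every library. With library totals only, 24 genes were higher. Leaving out 1 library gave from 0 to 187 genes higher and from 0 to 61 lower, and 0 members in each case. A lone library is assumed there to vary like the others. The fits with 1 library left out had no block, so differences between the replicates enter their fold changes. Members called higher went from 0 to 2 with edgeR and the block and to 1 without the filter, and members called lower from 0 to 2 with the block in edgeR and in DESeq2, and to 1 with DESeq2 without the block and without the filter. PML, at -0.69 and not called without the block, was called at -0.70 with the block in edgeR, -0.69 with it in DESeq2 and -0.68 without the filter, and its value was between -1.06 and -0.40 with 1 library left out. CDKN1B ranged from -0.16 without shPML replicate 2 to 0.55 without shCtrl replicate 2, and was also negative without shCtrl replicate 1 (-0.05). The other 5 members tested kept their direction under every alternative. With 2 libraries a group, the calls of CDKN1A and CDKN2D rest on edgeR with the block.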

Other observations

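The pocket proteins, which the kinases held by these inhibitors phosphorylate, were not alike. RB1 was at 66.3 and 28.4 CPM in shCtrl and shPML of replicate 1 and at 74.7 and 38.4 CPM in replicate 2, a log2 fold change of -1.08 (adjusted p = 0.0828 from edgeR without the block and 3.6e-11 with it). RBL1 had a log2 fold change of -0.53 (adjusted p = 0.17 and 0.00052 in the same fits), and RBL2, which dominates in resting cells, was at 67.7 and 81.0 CPM in replicate 1 and at 64.8 and 73.0 CPM in replicate 2 (log2 fold change 0.22, adjusted p = 0.54 and 0.15).

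Of 15 transcription factors that act on inhibitor genes, 10 had positive log2 values (median 0.12), as had 8406 of the 16516 genes tested. With the block 3 of the factors were called higher, beside 8.57% of all genes. KLF4, an activator of CDKN1A, was at 2.49 and 5.05 CPM in shCtrl and shPML of replicate 1 and at 2.19 and 12.5 CPM in replicate 2 (log2 fold change 1.89, adjusted p = 0.13 from edgeR without the block and 6.5e-07 with it). Its ratio was 2.02 in replicate 1 and 5.70 in replicate 2, whose shPML library held the myeloid RNA, and the part of that RNA in the difference was not tested. ID1, a repressor of CDKN2A in other cells, was at 45.5 and 16.8 CPM in replicate 1 and at 117 and 40.2 CPM in replicate 2 (log2 fold change -1.52, adjusted p = 0.27 and 6.9e-16).

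Among markers of other cells, the endothelial adhesion gene PECAM1, which leukocytes also express, had 113 counts in shPML replicate 2 and at most 3 elsewhere, while CDH5 had at most 2 in any library. The fibroblast genes DCN and LUM were at 0 in all 4 libraries, whereas PDGFRB, a growth factor receptor gene of fibroblasts and pericytes, had 186 and 174 counts in shCtrl and shPML of replicate 1 and 343 and 66 counts in replicate 2. Its log2 value was -1.42 without the block (adjusted p = 0.25, edgeR), and it was called lower with the block (-1.22, adjusted p = 0.00085).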
